A study of Sus scrofa domesticus with 2 samples.

Results

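Bone morphogenetic protein (BMP) signalling in cultured pig endothelial cells (ECs) was described through 10 genes: the ligands BMP4 and BMP6, the receptors ENG, ACVRL1 and BMPR2, the intracellular inhibitors SMAD6 and SMAD7, and the target genes ID1, ID2 and ID3. They were chosen by name for their place in the pathway, with earlier results of these data known, and are 10 of the 22804 genes in the counts. The study made an atlas of pig tissues and, beside it, cultured primary ECs, which come straight from animal tissue. Of the 2 libraries of such cells, 1 came from the aorta and 1 from the lung of domestic pigs, each released with collagenase and grown in the same medium with fetal calf serum. The lung culture started from a single lobe, and the animals behind the cultures are not identified in the labels. With 1 library per tissue, differences between tissue, animal, culture and library cannot be told apart, no difference was tested, and cells were not treated as replicates.

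In ECs, secreted BMP ligands bind pairs of type I and type II receptors at the cell surface, and the type I receptor then phosphorylates the signal carriers SMAD1, SMAD5 and SMAD9, which enter the nucleus with SMAD4 and switch on target genes such as the ID genes. ENG, ACVRL1 and BMPR2 are known for their role in vessels: inherited loss of ENG or ACVRL1 causes hereditary haemorrhagic telangiectasia, and loss of BMPR2 causes heritable pulmonary arterial hypertension. SMAD6 and SMAD7 are induced by the pathway and dampen it.

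Transcripts were counted by a random tag on each captured molecule, its unique molecular identifier (UMI). The aorta library held 46080859 UMIs in 1185 barcodes and the lung library 57213236 UMIs in 5946 barcodes. The 2 libraries shared 5 barcodes, of which 0 were in the cells kept from both. The limits of the study's methods, over 200 and under 5000 genes per cell and less than 30% mitochondrial UMIs, left 5683 lung cells and 246 aorta cells when applied here. The files hold no list of the cells kept in the study, so the cells described here need not be the same. The aorta library was deeper per cell, and 709 of its barcodes had 5000 genes or more, with a median of 58476 UMIs. The aorta was therefore also described with no upper limit on genes, which kept 955 cells, and its levels and counts of the 10 genes are given both ways. Other aorta values are with no upper limit unless said otherwise. Cells of very high UMI counts can be doublets, 2 cells that share a barcode, and no doublet caller was used.

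Cells were grouped into clusters by the similarity of their expression, without the 10 genes, the other pathway genes or the marker genes. Clusters were named from markers. Of the lung cells, 4930 were endothelial-like (median 9579 UMIs per cell) and 334 collagen-high (10721.5 UMIs), which are clusters with raised COL1A1 and COL1A2, the chains of type I collagen. Of the aorta cells within the limits, 159 were endothelial-like (5625 UMIs) and only 21 were collagen-high (8488 UMIs). With no upper limit, the aorta gave 635 endothelial-like cells (54960 UMIs) and 139 collagen-high cells (62295 UMIs).

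The endothelial name held on most of its markers. Levels are in CPM, a gene's share of all UMIs of a class, in which 1% is 10000 CPM. PECAM1, an adhesion molecule of EC junctions, was at 1597 CPM in lung endothelial-like cells and 153 CPM in lung collagen-high cells. The aorta with no upper limit gave 1293 CPM and 14.2 CPM. Of 14 endothelial markers, 13 were measured, and 9 of these reached 20 CPM in lung endothelial-like cells and 10 in those of the aorta with no upper limit. The defining markers KDR and VWF were near 0 in these cells, at 1.73 CPM and 0.357 CPM in the lung and at 0.368 CPM and 0.198 CPM in the aorta with no upper limit, and CLDN5 was not among the features. FLT1 ran the other way, at 21.0 CPM in lung endothelial-like and 48.0 CPM in lung collagen-high cells, and at 25.6 CPM and 32.1 CPM in the aorta with no upper limit. The collagen-high cells also carried ACTA2, a smooth muscle actin, at 1174 CPM in the lung and 1528 CPM in the aorta with no upper limit, so they were called by their collagen and given no cell type.

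Among the aorta cells within the limits, the endothelial-like class was a mixture. It joined 87 cells with a median of 10736 UMIs, which held 10 of 10 endothelial markers, and 72 cells with a median of 2379.5 UMIs, which held 6 of 10. In the shallower group the median mitochondrial share was 0.213%, against 7.10% in the other. ENG was at 464 CPM in the 87 cells and 159 CPM in the 72, BMP4 at 270 CPM and 98.3 CPM, and BMPR2 at 295 CPM and 46.8 CPM. PECAM1 fell likewise, from 1204 CPM to 501 CPM, while ID1 was higher in the 72 cells, at 300 CPM against 193 CPM. When no upper limit was set, 75 cells of this shallow kind (median 2248 UMIs) formed a cluster of their own that stayed unnamed, so the aorta classes with no upper limit rest largely on other cells and on far more UMIs.

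Levels below are UMIs summed over all cells of a class, as CPM, with exact Poisson 95% intervals. Ratios have exact conditional intervals from the same counts. All intervals cover counting error only, and say nothing of how another animal or culture would differ. A gene was counted as higher in a class at 2-fold or more and 20 CPM or more in that class.

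In the lung, 5 of the 10 genes were higher in endothelial-like than in collagen-high cells: BMP4, BMP6, ENG, ACVRL1 and BMPR2. SMAD6 and SMAD7 were under 20 CPM in both classes, and the 3 ID genes lay within 2-fold. Of the 6054 genes at 20 CPM or more in either class, 9.78% were higher in endothelial-like cells. The count in the other direction was 0 of 10, against 6.67% of all genes. Lung cells with no upper limit gave the same counts, 5 of 10 against 9.72% and 0 of 10 against 6.67%, again with SMAD6 and SMAD7 under 20 CPM. The log2 of the median ratio was 0.97 over all 10 members, SMAD6 and SMAD7 included, and 0.00 over the genes at 20 CPM or more.

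In the aorta within the limits, 7 of 10 were higher in endothelial-like cells, the same 5 genes with ID2 and ID3, against 16.5% of 6670 genes, and 1 of 10, SMAD7, was higher in collagen-high cells, against 16.1%. SMAD6 was the member under 20 CPM in both classes. The collagen-high class summed to 186306 UMIs, so that a gene at 20 CPM was expected to give fewer than 5 UMIs, and 5 of the 7 calls (BMP4, BMP6, ENG, ACVRL1 and ID2) rested on 5 UMIs or fewer in that class. With no upper limit, 5 of 10 were higher in aorta endothelial-like cells, the same 5 genes as in the lung, against 12.7% of 6303 genes, and 0 of 10 were higher in collagen-high cells, against 7.92%. ID2, ID3 and SMAD7 lay within 2-fold there, and SMAD6 was under 20 CPM.

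**Figure D1:**
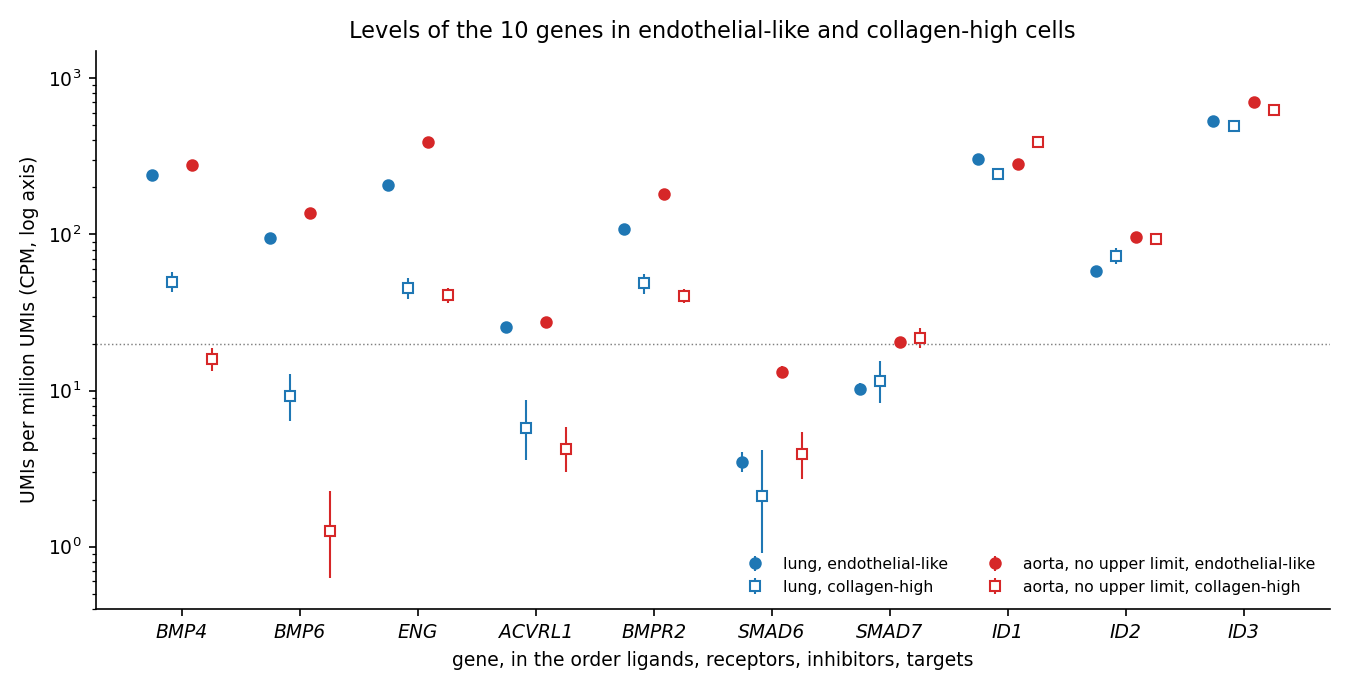
Level of each of the 10 genes (CPM, log axis) in endothelial-like cells (filled circles) and collagen-high cells (open squares) of the lung (blue) and of the aorta with no upper limit on genes (red), with 95% Poisson intervals for counting error and a dotted line at 20 CPM. The ligands and receptors lie lower in collagen-high cells of both tissues, while the ID genes lie close together, with ID1 at 389 CPM in collagen-high and 283 CPM in endothelial-like cells of the aorta.

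BMP4 (chr1:183415989-183422888 on Sscrofa11.1, minus strand), a secreted ligand that acts in vascular and embryonic patterning, was at 241 CPM (236 to 245) in lung endothelial-like cells and 49.8 CPM (43.0 to 57.4) in lung collagen-high cells, 4.83-fold (4.19 to 5.61) apart. With the upper limit dropped, the aorta levels were 280 CPM (275 to 286) and 16.0 CPM (13.4 to 18.8), 17.6-fold (14.9 to 20.9) apart. Within the limits it was at 242 CPM (216 to 270) in aorta endothelial-like cells, and the collagen-high level of 10.7 CPM (1.30 to 38.8) was 2 UMIs, for a ratio of 22.5 (6.19 to 187). The endothelial-like levels of lung and aorta overlapped within the limits, and with no upper limit the aorta was 1.17-fold (1.14 to 1.20) higher. A clustering with 30 principal components, which named only shallow aorta cells endothelial-like, gave a lung level 2.59-fold above the aorta.

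BMP6 (chr7:5058817-5208868, plus strand), a ligand known from iron balance in liver endothelium, was at 95 CPM (92.3 to 97.7) in lung endothelial-like cells and 9.17 CPM (6.39 to 12.8) in lung collagen-high cells, a ratio of 10.4 (7.43 to 14.9). In aorta endothelial-like and collagen-high cells without the upper limit it was at 138 CPM (134 to 142) and, from 11 UMIs, 1.26 CPM (0.630 to 2.26), a ratio of 109 (61.1 to 219). Within the limits the aorta levels were 150 CPM (130 to 173) and, from 2 UMIs, 10.7 CPM, a ratio of 14.0 (3.83 to 116). The aorta endothelial-like level stood above that of the lung both ways, 1.58-fold (1.37 to 1.82) within the limits and 1.46-fold (1.40 to 1.51) with no upper limit. In the 72 shallow aorta cells within the limits BMP6 was at 51.5 CPM (25.7 to 92.1), below the lung level.

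ENG (chr1:268309379-268343861, minus strand) encodes endoglin, a co-receptor that presents ligands to ACVRL1. Its level was 208 CPM (204 to 212) in lung endothelial-like cells and 45.3 CPM (38.8 to 52.6) in lung collagen-high cells, 4.59-fold (3.95 to 5.37) apart. With no upper limit, aorta endothelial-like cells were at 392 CPM (385 to 399) and collagen-high cells at 40.6 CPM (36.5 to 45.1), 9.64-fold (8.68 to 10.7) apart. Within the limits the aorta levels were 415 CPM (381 to 451) and, from 5 UMIs, 26.8 CPM (8.71 to 62.6). ENG was 1.99-fold (1.83 to 2.17) higher in aorta than in lung endothelial-like cells within the limits and 1.88-fold (1.83 to 1.93) with no upper limit, while its collagen-high levels overlapped between the tissues. In the 72 shallow aorta cells within the limits ENG was at 159 CPM (110 to 222), which overlapped the lung endothelial-like level.

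ACVRL1 (chr5:17267483-17284155, plus strand), the type I receptor also called ALK1, was low throughout. It was at 25.3 CPM (24.0 to 26.8) in lung endothelial-like cells and 5.77 CPM (3.61 to 8.73) in collagen-high cells, a ratio of 4.40 (2.89 to 7.04). Its aorta levels with no upper limit were 27.4 CPM (25.7 to 29.2) and 4.25 CPM (2.99 to 5.85), a ratio of 6.45 (4.65 to 9.22). Within the limits the aorta levels were 37.6 CPM (27.9 to 49.6) and 16.1 CPM (3.32 to 47.1), from 50 and 3 UMIs, and the interval of their ratio of 2.33, from 0.754 to 11.7, held 1.

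BMPR2 (chr15:105971577-106132496, plus strand), the type II receptor for BMP ligands, differed least between classes among the genes counted as higher in the lung. It was at 109 CPM (106 to 112) in lung endothelial-like cells and 48.5 CPM (41.7 to 56.0) in collagen-high cells, 2.24-fold (1.94 to 2.61) apart. Without the upper limit the aorta was at 182 CPM (178 to 187) and 40.3 CPM (36.2 to 44.7), 4.52-fold (4.06 to 5.05) apart, and within the limits at 255 CPM (228 to 283) and 69.8 CPM (37.2 to 119). It was the 1 member of 10 counted as higher in aorta than in lung endothelial-like cells within the limits, at 2.34-fold (2.09 to 2.61). The share of all 6078 genes was 6.22%. SMAD6, which was also over 2-fold higher, and SMAD7 were under 20 CPM in both tissues and were not counted. The direction for BMPR2 depended on the cells named: with 30 principal components the lung was 2.35-fold higher. With no upper limit the ratio was 1.67 (1.61 to 1.74) and the count was 0 of 10, SMAD6 being under 20 CPM, against 3.11% of 5911 genes. Higher in lung than in aorta endothelial-like cells were 0 of 10 both ways, against 3.34% of genes within the limits and 1.27% with no upper limit.

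UMIs of endothelial genes also appeared in collagen-high cells, where free RNA or doublets can place them. In lung collagen-high cells, 8 of the 9 endothelial markers at 20 CPM or more in endothelial-like cells ranged from 8.91% of their endothelial-like level for ROBO4 to 35.5% for CLEC14A, with PECAM1 at 9.57%, CDH5 at 11.5% and ERG at 23.7%, and FLT1 was at 229%. BMP6 at 9.66%, BMP4 at 20.7%, ENG at 21.8% and ACVRL1 at 22.7% lay inside the range of the 8, and BMPR2 at 44.6% above it. Of the 8, only ERG and CLEC14A stood above BMP4, ENG and ACVRL1. For the aorta with no upper limit, the markers ran from 0.379% for TIE1 through 1.10% for PECAM1 and 1.36% for CDH5 to 25.9% for CLEC14A and 31.7% for ERG, with FLT1 at 126%. All the members called higher lay inside that range, BMP6 at 0.914%, BMP4 at 5.69%, ENG at 10.4%, ACVRL1 at 15.5% and BMPR2 at 22.1%. The range was wide because of CLEC14A and ERG. Apart from FLT1, only these markers stood above BMP4, ENG, ACVRL1 and BMPR2, and ESAM was at 2.92%, TEK at 2.58% and EGFL7 at 2.07%. Within the limits, from few UMIs, ACVRL1 was at 42.8% and ERG at 67.3%. In the other direction COL1A1 in endothelial-like cells was at 0.303% of its collagen-high level in the lung and 0.495% in the aorta. The part of free RNA in these levels was not tested further.

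The share of cells with at least 1 UMI depends on depth, so each cell was thinned, by random draws from its own UMIs, to 5200 UMIs, and shallower cells were left out. This left out 118 lung endothelial-like, 21 lung collagen-high, 5 aorta endothelial-like and 1 aorta collagen-high cells, the aorta again with no upper limit. ENG was then seen in 59.4% of lung endothelial-like cells (exact binomial interval 58.0 to 60.8) and 18.8% of lung collagen-high cells (14.7 to 23.6). PECAM1, an endothelial marker, was seen in 21.7% of the same collagen-high cells (17.3 to 26.7). In the aorta ENG was seen in 78.3% of endothelial-like cells (74.8 to 81.4) and in 22.5% of collagen-high cells (15.8 to 30.3), against 6.52% for PECAM1 in the latter. Before thinning, the ENG shares were 76.7% and 32.0% in the lung and 99.2% and 86.3% in the aorta.

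BMP6 was seen in 39.0% of thinned lung endothelial-like cells and 4.47% of collagen-high cells. In the aorta it was seen in 47.3% of endothelial-like cells and in 0 of 138 collagen-high cells (interval up to 2.64%), although 7.91% of the unthinned cells of this class held a BMP6 UMI. BMPR2 was seen in 59.5% of aorta endothelial-like and 19.6% of collagen-high cells.

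SMAD6 (chr1:164652602-164735084, plus strand), which holds back BMP receptor signalling by preference, was under 20 CPM in every class. Its level was 3.49 CPM (3.00 to 4.05) in lung endothelial-like cells and 2.10 CPM (0.905 to 4.13) in collagen-high cells, which overlapped. In the aorta with no upper limit it was at 13.2 CPM (12 to 14.5) and 3.90 CPM (2.70 to 5.45), a ratio of 3.38 (2.39 to 4.95), and within the limits the collagen-high level of 5.37 CPM (0.136 to 29.9) was 1 UMI. Aorta endothelial-like cells were 3.87-fold (2.24 to 6.30) above those of the lung within the limits, where the level was 13.5 CPM from 18 UMIs, and 3.79-fold (3.18 to 4.53) with no upper limit.

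SMAD7 (chr1:98512800-98543924, minus strand), which blocks both BMP and TGF-β receptors, did not separate the classes in the lung, at 10.3 CPM (9.43 to 11.2) and 11.5 CPM (8.38 to 15.5), nor in the aorta with no upper limit, with 20.4 CPM (18.9 to 21.9) against 21.7 CPM (18.7 to 25.0). Its higher collagen-high level within the limits, 42.9 CPM (18.5 to 84.6) against 12.8 CPM (7.44 to 20.5), came from 8 UMIs. Aorta endothelial-like cells were 1.24-fold (0.717 to 2.01) above those of the lung within the limits, and 1.97-fold (1.76 to 2.21) with no upper limit.

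The ID genes encode helix-loop-helix proteins that bind and block transcription factors of differentiation. They lay within 2-fold between the classes in the lung and in the aorta with no upper limit. ID1 (chr17:35316518-35317742, plus strand) was at 304 CPM (299 to 308) in lung endothelial-like and 243 CPM (228 to 259) in lung collagen-high cells, a ratio of 1.25 (1.17 to 1.33). In the aorta with no upper limit the order was the other way, 283 CPM (277 to 288) and 389 CPM (376 to 403), a ratio of 0.726 (0.698 to 0.755). Within the limits the aorta levels of 210 CPM (186 to 236) and 182 CPM (126 to 255) overlapped.

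ID2 (chr3:127500759-127503207, minus strand) was at 58.5 CPM (56.4 to 60.6) in lung endothelial-like cells and 73.1 CPM (64.8 to 82.2) in collagen-high cells. Its aorta levels with no upper limit, 96.6 CPM (93.4 to 99.9) and 92.9 CPM (86.6 to 99.5), overlapped. Within the limits the levels of 106 CPM (89.2 to 125) and 26.8 CPM (8.71 to 62.6) came from 141 and 5 UMIs, a ratio of 3.95 (1.65 to 12.4). ID2 was higher in aorta than in lung endothelial-like cells, 1.81-fold (1.52 to 2.15) within the limits and 1.66-fold (1.58 to 1.74) with no upper limit. In the 72 shallow aorta cells within the limits ID2 was at 51.5 CPM (25.7 to 92.1), which overlapped the lung level.

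ID3 (chr6:81422541-81424169, minus strand) was at 532 CPM (525 to 538) in lung endothelial-like cells and 494 CPM (472 to 517) in collagen-high cells. In the aorta with no upper limit it was at 709 CPM (700 to 718) and 627 CPM (610 to 644), a ratio of 1.13 (1.10 to 1.16). Within the limits the aorta ratio was 2.01 (1.52 to 2.72), from 562 CPM and 279 CPM. After thinning, ID3 was seen in 88.8% of lung endothelial-like and 87.2% of lung collagen-high cells, and in the aorta with no upper limit in 92.9% (90.6 to 94.7) and 81.9% (74.4 to 87.9). ID1 was seen in 69.5% (68.2 to 70.8) and 56.5% (50.9 to 62.1) of the lung cells, and in 69.4% and 68.8% of the aorta cells. Within the limits ID1 was seen in 45.2% (34.3 to 56.5) of the 84 aorta endothelial-like cells deep enough.

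Endothelial-like cells did not carry the 10 genes evenly. Clusters with MGP, SLPI, a secreted protease inhibitor, and CFD, the complement serine protease factor D, among their leading genes stood out for the receptors. In the lung this was a cluster of 818 cells, led by MGP, and in the aorta with no upper limit one of 234 cells, led by CXCL10 and CCL5. An unnamed lung cluster of 289 shallow cells was also high in receptors, with ENG at 265 CPM (233 to 300), BMPR2 at 178 CPM (152 to 207) and ACVRL1 at 36.8 CPM (25.6 to 51.2). So was an unnamed aorta cluster of 37 cells with no upper limit, at 447 CPM (396 to 502), 191 CPM (158 to 228) and 33.4 CPM (20.7 to 51.0). Both clusters held 10 of 10 endothelial markers and stayed unnamed for their low depth. They are not among the other endothelial-like cells in the ratios below. An unnamed lung cluster of 89 cells had ACVRL1 at 39.3 CPM (27.5 to 54.5) but ENG at 149 CPM (125 to 176). ENG was at 288 CPM in the lung cluster of 818 cells against 192 CPM in the other endothelial-like cells, a ratio between 1.43 and 1.57, and at 514 CPM against 326 CPM in the aorta cluster, 1.58-fold (1.52 to 1.63). BMPR2 was 1.63-fold (1.53 to 1.73) and 1.78-fold (1.69 to 1.87) higher. ACVRL1 was higher by an interval of 1.04-fold to 1.38-fold in the lung and, at 40.6 CPM against 20.3 CPM, of 1.76-fold to 2.27-fold in the aorta.

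The same clusters held more SMAD6, 1.62-fold (1.12 to 2.30) in the lung and 1.70-fold (1.41 to 2.04) in the aorta. ID2 was 1.31-fold and 1.62-fold higher, and ID3 1.30-fold and 1.26-fold. BMP4 differed between them, at 0.937 (0.892 to 0.984) in the lung and 1.29 (1.24 to 1.34) in the aorta, and so did SMAD7, at 0.915 (0.711 to 1.16) and 1.28 (1.10 to 1.49). ID1 was lower in both, at 0.850 (0.812 to 0.889) and 0.763 (0.730 to 0.796) of the other endothelial-like cells. PECAM1 was nearly level, at 1.04 and 0.990. Clusters were compared after they had been seen, so these are descriptions. Scaling to nuclear genes without ribosomal protein genes gave ENG at 1.53 and 1.61 and ID1 at 0.868 and 0.779. This scaling moves all genes of a cluster by the same small factor, so it could not test these directions. A lung cluster of 196 cells led by CXCL10 and CCL5, without SLPI and CFD among its leading genes, had ENG at 0.814 (0.725 to 0.910), BMPR2 at 0.910 (0.781 to 1.05) and ID1 at 1.12 (1.03 to 1.21).

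Cycling clusters differed among themselves. In the cluster led by histone genes, which had 454 cells in the lung and 171 in the aorta with no upper limit, ACVRL1 was at 0.567 (0.448 to 0.709) and 0.473 (0.399 to 0.558) of the other endothelial-like cells. BMPR2 was at 0.687 and 0.663. BMP4 was higher in these clusters, 1.39-fold (1.32 to 1.46) and 1.23-fold (1.18 to 1.28), as was ID1, 1.22-fold in both. Other cycling clusters shared this in part. A lung cluster of 587 cells led by TOP2A had BMP4 at 1.27 (1.22 to 1.33), an ID1 interval of 1.16 to 1.25 and ACVRL1 at 1.10 (0.945 to 1.27) of the other endothelial-like cells, and a lung cluster of 785 cells led by DNA replication genes had ACVRL1 at 0.936 (0.803 to 1.09) and BMP4 at 0.953 (0.908 to 1.00). BMP4 was at 0.794 (0.750 to 0.840) in a lung cluster of 832 cells and 0.696 (0.659 to 0.734) in an aorta cluster of 149 cells, both led by mitotic genes. ID1 differed between these, at 0.917 (0.874 to 0.962) in the lung and 1.13 (1.08 to 1.19) in the aorta, and BMPR2 was at 0.893 (0.823 to 0.968) and 0.747 (0.700 to 0.797). BMP4 was lowest among aorta endothelial-like clusters in one of 81 cells led by FOLR1 and IL6, at 152 CPM against 296 CPM, a ratio of 0.513 (0.471 to 0.558).

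**Figure D2:**
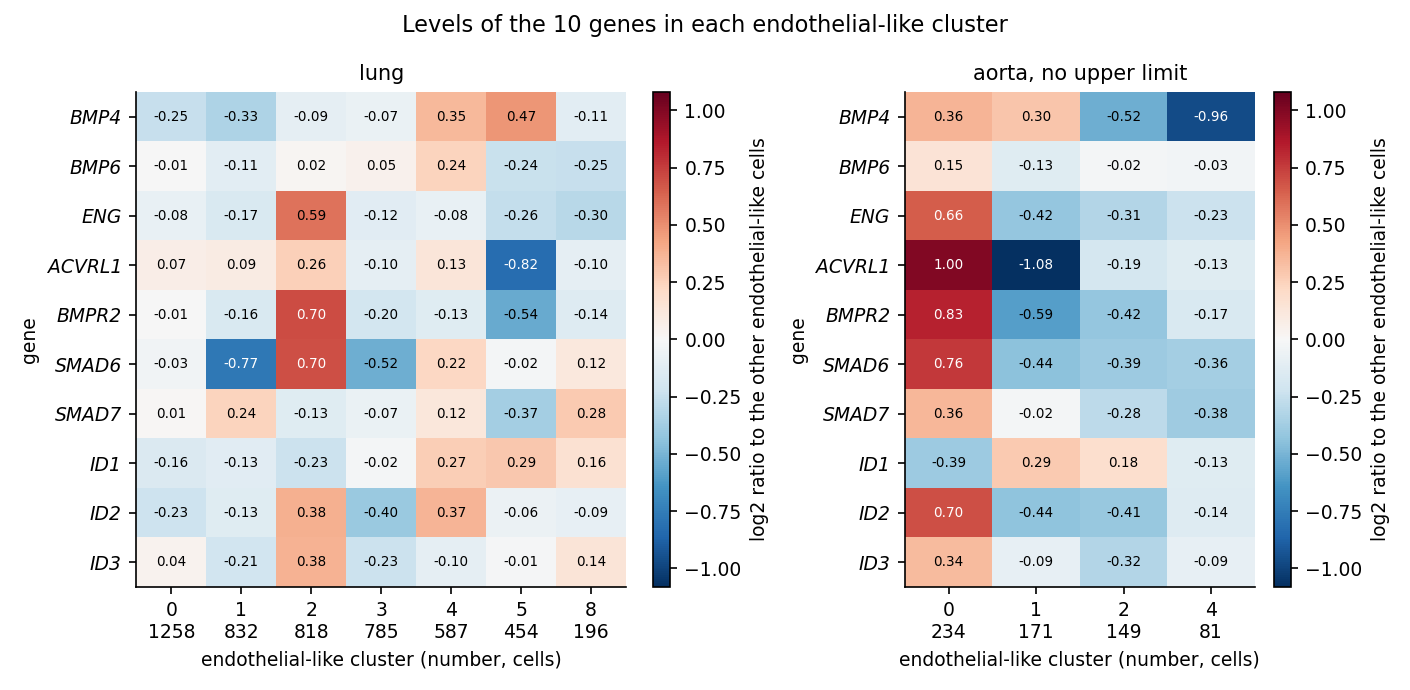
Log2 ratio of each gene's level in an endothelial-like cluster to its level in the other endothelial-like cells of the same library, for the lung (left) and the aorta with no upper limit on genes (right), with cluster number and cells below each column. Lung cluster 2 and aorta cluster 0, with MGP, SLPI and CFD among their leading genes, were high in ENG and BMPR2 and low in ID1, and the histone-led clusters, 5 in the lung and 1 in the aorta, were low in ACVRL1.

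The 2 lung collagen-high clusters also differed. In 243 cells led by ACTA2 and COL6A1, ID1 was at 179 CPM (163 to 195), and in 91 cells led by COL3A1 and IGFBP5 it was at 429 CPM (389 to 472). ENG was ordered the other way, at 53.4 CPM (45.2 to 62.6) and 22.3 CPM (14.0 to 33.8). The upper ID1 level overlapped the aorta collagen-high level of 389 CPM (376 to 403) with no upper limit, and the lower did not.

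The deep aorta cells allowed a look at single cells. Thinned to 20000 UMIs, a number chosen after the depths had been seen, 592 endothelial-like cells were left and 43 shallower ones dropped. ENG had a mean of 7.79 UMIs per cell and was at 0 in 5 cells, with a variance of 3.82 times the mean, where counting alone gives about 1. BMP4 varied more in relation to its mean of 5.54 UMIs, with a ratio of 5.42 and 82 cells at 0, while the 10th and 90th percentiles were 0 and 13 UMIs. ID1 had a mean of 5.79 UMIs and a ratio of 4.95. For PECAM1 the mean was 26.3 UMIs and the ratio 3.54.

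Across these 592 cells, Spearman's rho was 0.29 between ENG and BMPR2, 0.23 between ID1 and ID3, and 0.22 between ID2 and ID3. It was −0.18 between BMP4 and ID1 and −0.14 between ENG and ID1. Within the 4 clusters, the ID1 and ID3 value ranged from 0.07 to 0.41 and the ENG and BMPR2 value from 0.01 to 0.24. The cells shared 1 library and 1 depth, and these weak relations are given as a description.

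Over all 20 clusters of the lung and of the aorta with no upper limit, the genes whose levels ran most like ENG were NOX4, DKK3, CLDND1, IL6ST and RASGRP3, with Pearson r of log2(CPM + 10) from 0.98 to 0.96 among 4772 genes at 50 CPM or more in a cluster. Among the members, r with ENG was 0.94 for BMP6, 0.91 for BMP4, 0.88 for BMPR2 and 0.86 for ACVRL1, and −0.49 for ID1. The genes most like ID1 were SNTB2 at 0.93, TRIR at 0.80, PSMD9 at 0.78, YWHAB at 0.77 and CCT8 at 0.76. Clusters of 1 library share its depth and free RNA, and the clusters span endothelial and other cells. The part of either in such a value was not tested.

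Of 47 other genes of the pathway, 46 were measured. In the lung 6 of 46 were higher in endothelial-like cells and 6 of 46 in collagen-high cells, with 28 under 20 CPM in both classes, against 9.78% and 6.67% of all genes at 20 CPM or more. In the aorta with no upper limit the counts were 7 and 4, with 26 under 20 CPM, against 12.7% and 7.92%, and within the limits 5 and 8, with 23 under 20 CPM, against 16.5% and 16.1%. The ligands GDF2 and BMP10, which bind ACVRL1 with high affinity, had 0 UMIs in both classes of both tissues, where 3 UMIs would be 0.0595 CPM in lung endothelial-like cells.

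Genes higher in endothelial-like cells of the lung and of the aorta with no upper limit were the signal carrier SMAD1, the secreted regulators BMPER, CRIM1 and MGP, and the targets HEY1 and ATOH8. HEY1 and ATOH8 were not counted as higher in the aorta within the limits, where HEY1 was at 57.1 CPM and 53.7 CPM, from 76 and 10 UMIs, and ATOH8 at 24.1 CPM and 0 UMIs, at least 1.49-fold apart. SMAD1 was at 85.7 CPM and 27.3 CPM in lung endothelial-like and collagen-high cells, 3.15-fold (2.59 to 3.86), and 2.78-fold (2.37 to 3.29) higher in those of the aorta. BMPER, a secreted BMP modulator of ECs, was 6.16-fold (4.09 to 9.74) and 32.4-fold (19.6 to 58.1) higher. ATOH8, a transcription factor downstream of BMP signals in ECs, was 5.99-fold (3.55 to 11.0) and 13.6-fold (8.36 to 24.0) higher.

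The genes higher in collagen-high cells both in the lung and in the aorta with no upper limit were INHBA, CHRDL1, NBL1 and ID4. INHBA, the chain of the ligand activin A, was at 339 CPM in lung collagen-high cells and 7.48 CPM in endothelial-like cells, 45.4-fold (40.4 to 51.0), and 13.1-fold (12.3 to 13.9) higher in those of the aorta, at 457 CPM and 35.0 CPM. ID4, the remaining ID gene, was 8.51-fold (6.94 to 10.4) and 6.46-fold (5.46 to 7.67) higher, in contrast to ID1, ID2 and ID3. CHRDL1, a secreted BMP antagonist, was 2.34-fold (2.10 to 2.60) and 4.76-fold (4.01 to 5.66) higher, while in the aorta within the limits it ran the other way, at 19.5 CPM in endothelial-like cells and, from 1 UMI, 5.37 CPM in collagen-high cells, a ratio of 3.64 (0.598 to 149).

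Between the tissues, MGP, a matrix protein that binds BMP ligands, differed most among the pathway genes counted in endothelial-like cells. It was at 166 CPM in the aorta with no upper limit and 23.3 CPM in the lung without that limit, 7.14-fold (6.71 to 7.61), and within the limits at 560 CPM and 22.1 CPM, 25.3-fold (23.1 to 27.8). INHBA was 3.82-fold (2.66 to 5.34) higher in aorta endothelial-like cells within the limits and 4.58-fold (4.08 to 5.14) with no upper limit. CHRDL1 was higher in the lung, 2.36-fold (1.61 to 3.62) and 6.61-fold (5.80 to 7.57). It was no longer counted with cells under 1% mitochondrial left out, resolution 1.5, 10 principal components, thinned cells, 3-fold and 50 CPM. The type I receptor BMPR1A was under 20 CPM in endothelial-like cells of both tissues, at 0.695 CPM in the lung and 13.5 CPM in the aorta within the limits, 19.5-fold (10.4 to 35.3) apart.

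The 250 bases before the RefSeq gene start of each member were read from Sscrofa11.1 and searched on both strands for short motifs. Sites farther from the gene start were not searched, and no link to the levels was tested. The motifs were GGCGCC, a palindrome of BMP-responsive SMAD binding, CAGAC, the SMAD box, and CCGGAA, a core of ETS factor binding. GGCGCC was in 16.1% of 19556 such windows and in 1 of 10 members, BMP6. CAGAC was in 39.0% of windows and in 3 of 10, ENG, ID1 and BMP6. CCGGAA was in 13.6% of windows and in 1 of 10, BMP4. The counts of members lay near the share of all windows, and a match is a run of letters, not a shown binding site. The windows of ENG (chr1:268343862-268344111, minus strand), BMP6 (chr7:5058567-5058816, plus strand) and ID1 (chr17:35316268-35316517, plus strand) are shown 5′ to 3′, as a receptor, a ligand and a target with a match, with GGCGCC and CAGAC, or its reverse complement, in capitals.
ENG: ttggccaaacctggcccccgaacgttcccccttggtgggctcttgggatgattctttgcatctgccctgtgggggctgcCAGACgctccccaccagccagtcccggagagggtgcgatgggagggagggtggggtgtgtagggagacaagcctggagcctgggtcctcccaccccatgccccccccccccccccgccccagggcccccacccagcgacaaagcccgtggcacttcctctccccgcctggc
BMP6: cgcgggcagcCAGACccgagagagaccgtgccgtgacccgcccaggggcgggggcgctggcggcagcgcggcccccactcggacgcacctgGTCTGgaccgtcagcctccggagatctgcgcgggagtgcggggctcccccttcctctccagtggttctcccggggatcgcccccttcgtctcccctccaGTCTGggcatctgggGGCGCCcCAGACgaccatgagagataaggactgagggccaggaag
ID1: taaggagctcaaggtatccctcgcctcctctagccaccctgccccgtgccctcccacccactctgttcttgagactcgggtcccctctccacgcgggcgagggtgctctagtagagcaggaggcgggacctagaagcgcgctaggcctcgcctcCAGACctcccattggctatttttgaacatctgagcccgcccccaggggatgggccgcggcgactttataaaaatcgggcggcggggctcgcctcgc
The window of BMP6 held 4 CAGAC matches and 1 GGCGCC match, and those of ENG and ID1 held 1 CAGAC match each. The counts rest on Ensembl gene models, whose gene starts may differ from those of RefSeq.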

How the data were processed

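The libraries were made with a 10x 3′ kit, and the authors deposited counts, the UMIs per gene and cell from Cell Ranger 3.0.2 on Sscrofa11.1, without normalization. Each library was clustered alone with Seurat 5.3.0 in R 4.3.3, from 2000 variable genes less the markers and pathway genes, 20 principal components and a resolution of 1. Python 3.11.15 with numpy 2.4.6, pandas 2.3.3 and scipy 1.17.1 was used for the other steps, which were tested on simulated data. A marker was raised at 20 CPM or more and 2-fold above the rest of the library. Endothelial-like clusters held at least 3 and most of the endothelial markers, each at 0.25 of its highest cluster or more, collagen-high clusters had COL1A1 and COL1A2 raised, and EndMT-like clusters at least 3 smooth muscle or EndMT markers. A cluster with markers of both kinds, or with endothelial and at least 3 raised immune markers, stayed unnamed, as did a cluster whose median UMIs were under the library median divided by 3 and whose 10 leading genes held no marker of its class. These thresholds were chosen after the levels had been seen, and the rule on both kinds after the clusters of an alternative had been seen. In the lung 289 shallow cells, 89 cells with raised immune markers, and in the aorta with no upper limit 75 and 37 cells stayed unnamed. The upper gene limit was the only step against doublets. The members and gene lists were chosen with earlier results of these data known. Named genes were the members, pathway genes at 20 CPM or more in an endothelial-like or collagen-high class within the limits, and the 5 genes most like ENG and ID1, while leading genes of clusters, and GDF2 and BMP10 at 0, were named after their values had been seen. There were 16 alternatives.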

Additional observations from a re-analysis of the deposited data

Results flagged for a closer look

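ID1 differed in direction between the tissues: the ratio of endothelial-like to collagen-high cells was 1.25 in the lung and 0.726 in the aorta with no upper limit on genes. With 1 library per tissue this difference was not tested. The aorta value within the limits was 1.15 with an interval from 0.803 to 1.69. The lung and aorta libraries also differed in depth, and the collagen-high clusters of the lung differed from each other in ID1, at 179 CPM and 429 CPM. Summed G2M markers ran in the same directions as ID1 in the lung and in the aorta with no upper limit. For endothelial-like against collagen-high cells, the sums were 685 CPM and 574 CPM in the lung. With no upper limit the aorta gave 595 CPM and 1062 CPM. Within the limits its sums were 378 CPM and 462 CPM, the other way from the ID1 ratio of 1.15, whose interval held 1. Summed S phase markers ran in the direction of ID1 each time. They were at 428 CPM and 357 CPM in the lung and 496 CPM and 533 CPM in the aorta with no upper limit. For the aorta within the limits they were at 429 CPM and 354 CPM. The part of any of these in the difference was not tested.

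A class outside the comparisons also held UMIs of these genes. With no upper limit, 69 aorta cells formed an EndMT-like cluster, with ACTA2 at 2033 CPM and a median mitochondrial share of 0.106%. The name rests on smooth muscle and EndMT markers, and an endothelial origin was not tested. The cluster held 0 of 10 endothelial markers and had a median of 3704 UMIs, against 52080 over the aorta cells with no upper limit. Its ID1 level was 503 CPM (428 to 588), its ID3 level 589 CPM (507 to 680) and its ID2 level 63.3 CPM (38.7 to 97.8). BMP4 and BMPR2 were each at 12.7 CPM (3.45 to 32.4), from 4 UMIs each, while ENG was at 6.33 CPM from 2 UMIs and ACVRL1 had 0 UMIs. The ID genes thus stood above the limit of 9.50 CPM that 3 UMIs set by a wide margin, and BMP4 and BMPR2 by 1 UMI. The 41 EndMT-like lung cells, with 60135 UMIs in all, had ENG at 83.1 CPM (27.0 to 194), BMP4 at 99.8 CPM (36.6 to 217) and BMPR2 at 66.5 CPM (18.1 to 170), from 5, 6 and 4 UMIs, and ID1 at 183 CPM (91.3 to 327). PECAM1 was at 382 CPM there and 15.8 CPM in the aorta cluster, and the cause of this difference was not tested.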

How the results depend on the processing

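Under the 13 alternatives that change levels, 315 ratios of members stayed within their counting interval, 64 moved and 1 reversed, and under all 16 alternatives 76 counts of members stayed within 1.5 times and 18 moved. Of the 315, 30 came from nuclear scaling, which moves all genes of a class by the same factor. Another 30 came from resolution 0.8. That resolution, and leaving out cycling clusters, left the aorta classes unchanged, so ratios within the aorta could not move there. The 5 genes higher in lung endothelial-like than collagen-high cells were the same under each alternative but 3-fold, which lost BMPR2, and 50 CPM, which lost ACVRL1. Of the 7 higher in aorta endothelial-like than collagen-high cells, 5 were left with no upper limit, a mitochondrial share under 20%, cells under 1% left out, 10 principal components, joint clustering, gated cells and 3-fold, and 6 with resolution 1.5, nuclear CPM, the mean of per-cell CPM and 50 CPM. ID3 was lost in each of these but 50 CPM, and ACVRL1 with gated cells, 3-fold and 50 CPM. ID2 was lost with no upper limit, a mitochondrial share under 20%, cells under 1% left out, 10 principal components and joint clustering. The count higher in aorta collagen-high than endothelial-like cells, 1 within the limits, was 0 with no upper limit on genes, with cells thinned to 5200 UMIs and at 50 CPM. The count higher in aorta than lung endothelial-like cells, 1 within the limits, was 0 with no upper limit, 30 principal components, the mean of per-cell CPM, cycling clusters left out and 3-fold. Leaving out cycling clusters removed lung cells only, which left 2272 lung and 159 aorta endothelial-like cells. At resolution 1.5, 45 aorta endothelial-like cells formed a cycling cluster, so cycling aorta cells stayed in that comparison. The count was 2 with a mitochondrial share under 20%, cells under 1% left out, resolution 1.5, 10 principal components, both libraries clustered together, nuclear CPM and thinned cells, 3 with cells gated by markers, and 4 at 1.5-fold. With 30 principal components 2 members, BMP4 and BMPR2, were higher in lung than aorta endothelial-like cells, against 0, and the BMPR2 ratio of lung to aorta reversed to 2.35. That clustering gave no aorta collagen-high class, so its counts there could not be given, and its 67 aorta endothelial-like cells were of the shallow kind (median 2346 UMIs, 0.194% mitochondrial), while 104 deeper cells (10856 UMIs) stayed unnamed. In the 72 shallow cells within the limits BMPR2 was at 46.8 CPM, against 295 CPM in the 87 deeper ones. The cause was not tested. The 21 aorta collagen-high cells within the limits leave levels under about 20 CPM beyond reach, and no alternative replaces a second library per tissue. No paired analysis was possible because each tissue had 1 library.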
